A study of Mus musculus with 12 samples.

Results

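Adipocyte genes and Thrsp were followed across 12 mouse hearts as a check of fat tissue in the heart samples. The genes are Thrsp, Cfd, Plin1, Adipoq, Car3, Cidec, Lep, Ucp1 and Pck1, and every probe set that the platform annotation given here assigns to 1 of them alone was taken, dim ones included. This gave 14 of 45037 probe sets, for 7 of the 9 genes. The annotation used here lists no such probe set for Cfd, the serine protease adipsin, or Plin1, which coats the lipid droplet of fat cells, and both were not analysed here.

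Total RNA of each heart was hybridized to 1 Affymetrix array of mouse genes. By the labels, 3 hearts came from ILKR211A Tg mice, 3 from ILKS343D Tg mice and 6 from WT littermates, all C57BL/6 and 8 to 9 weeks old. The study's methods describe cardiac-specific over-expression of a mutated human integrin-linked kinase (ILK), changed in the R211A line so that it resists activation and in the S343D line at a putative site of its own phosphorylation. Neither the driving promoter nor the number of founders is given in the sources used here. The hearts are numbered from 1 to 12: hearts 7, 9 and 12 are ILKR211A Tg, hearts 2, 4 and 5 are ILKS343D Tg, and hearts 1, 3, 6, 8, 10 and 11 are WT. The WT hearts carry 2 series of title numbers, the first for hearts 1, 3 and 6 and the second for hearts 8, 10 and 11. The description of WT heart 1 names the left ventricle, while the other 11 name the heart, in hearts 4 and 8 with the word left beside it. The labels name no surgery, whereas the methods speak of mice with and without myocardial infarction, and no comparison by infarction was made.

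The deposited values are MAS5 signals on a linear scale, scaled by the authors to the same trimmed mean, and the number of arrays limits their precision. The median signal of an array lay between 41.5 and 49.1. Ilk, the targeted gene, followed the labels, with 8223 to 9553 in ILKR211A Tg hearts, 3258 to 4016 in ILKS343D Tg hearts and 551 to 657 in WT hearts. Heart 1 is labelled male and the others female, but its Xist signal of 718 lay within the 703 to 864 of the other 11 hearts, and its Eif2s3y signal of 4.47 within their 0.636 to 8.17. The heart muscle myosin genes Myl2 and Myh6 were at 9391 to 12926 and 11327 to 14185. Fast skeletal muscle markers were dim, with all 9 below the limit for testing (a mean log2 signal at the median of all probe sets, equal to a signal of 43.5) and between 1.15 and 88.8, the highest being Atp2a1, the calcium pump of fast muscle, in heart 7. The atrial genes differed far more between hearts: Myl7, the atrial myosin light chain, had 4910, 315 and 739 in ILKR211A Tg hearts 7, 9 and 12 and 2326, 4709 and 63.6 in ILKS343D Tg hearts 2, 4 and 5. In WT hearts Myl7 ran from 131 to 3707. These atrial values were read beside each measured member gene below, since hearts 7, 4 and 8 had the 3 highest Myl7 signals.

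White fat cells store triglyceride in 1 large lipid droplet and secrete hormones, among them leptin and adiponectin. Brown fat cells burn fuel for heat through the uncoupling protein of their mitochondria. The mouse heart is surrounded by small depots of both kinds, along the atria, the great vessels and the epicardial surface. Heart muscle itself takes up fatty acids, and shares with fat cells many genes of lipid droplets and lipolysis, so that only some adipocyte genes separate the tissues. Thrsp, also called Spot 14, is a nuclear protein that responds to thyroid hormone and accompanies fatty acid synthesis in liver and fat, and its paralog is Mid1ip1.

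The promoters of Adipoq and Thrsp, the 2 genes whose patterns across the hearts are set against each other below, are shown from 250 bases before to 50 bases after the start of the gene (RefSeq, GRCm38.p6). Capitals mark CCAAT or its reverse ATTGG. Adipoq lies at chr16:23146286-23146585 on the plus strand and Thrsp at chr7:97417501-97417800 on the minus strand.
Adipoq: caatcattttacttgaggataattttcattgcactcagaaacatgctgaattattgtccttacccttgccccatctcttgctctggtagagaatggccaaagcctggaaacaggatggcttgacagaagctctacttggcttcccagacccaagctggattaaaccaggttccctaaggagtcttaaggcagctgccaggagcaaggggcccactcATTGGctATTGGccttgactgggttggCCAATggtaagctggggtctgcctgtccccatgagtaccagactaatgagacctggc
Thrsp: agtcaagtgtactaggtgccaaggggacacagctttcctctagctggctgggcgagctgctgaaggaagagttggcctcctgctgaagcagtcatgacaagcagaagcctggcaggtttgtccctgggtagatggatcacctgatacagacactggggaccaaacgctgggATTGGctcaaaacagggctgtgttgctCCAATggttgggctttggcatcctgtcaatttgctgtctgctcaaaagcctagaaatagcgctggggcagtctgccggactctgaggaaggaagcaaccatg
The Adipoq window held 3 matches of CCAAT, starting 7, 27 and 34 bases before the gene, and the Thrsp window held 2, starting 52 and 79 bases before it. Of 32851 promoters of this length, 37.4% hold CCAAT on either strand. TTGCNNAA, the core of a C/EBP element, was in neither window and in 10.8% of all. It stood 55 bases before the start of Lep, the leptin gene, at 2 places in the promoter of Plin1, 58 and 187 bases before its start, and in 1 of the promoters of Cidec, 198 bases before. Neither the TATAAA box (13.6% of all) nor a PPAR element of AGGTCA repeated after 1 base (0.0396% of all) was found in any of the members' promoters, and Car3 was not in the table. These are matches of letters on both strands, and the arrays measured no binding.

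Adipoq encodes adiponectin, a hormone made by fat cells. Its signal was 212, 19.9 and 26.2 in ILKR211A Tg hearts 7, 9 and 12, and 24.1, 71.1 and 15.5 in ILKS343D Tg hearts 2, 4 and 5. In the 6 WT hearts it ran from 14.4 through a median of 23.9 to 51.2, the highest being heart 8. ILKR211A Tg heart 7 thus stood alone, at 2.99 times the next heart, ILKS343D Tg heart 4, and the other ILKR211A Tg hearts lay inside the WT range. Its mean lay below the limit for testing. The log2 fold change of ILKR211A Tg against WT hearts was 0.99 (standard error 0.67, adjusted p = 0.873 from limma without a filter), and without heart 7 it was -0.08. For ILKS343D Tg against WT hearts it was 0.31 (standard error 0.67, adjusted p = 0.998 from limma), and without heart 4 it was -0.32. Set against the WT heart of the same title number, ILKR211A Tg hearts 7, 9 and 12 differed by 2.05, -0.41 and 0.86 on the log2 scale and ILKS343D Tg hearts 4 and 5 by 2.05 and -0.82. In a bulk sample, fewer cells of a type and less RNA per cell cannot be told apart.

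Car3, a carbonic anhydrase abundant in fat cells and in slow skeletal muscle, followed Adipoq from heart to heart. Its brightest probe set had 823, 50.8 and 57.9 in ILKR211A Tg hearts 7, 9 and 12, and 65.3, 299.9 and 32.1 in ILKS343D Tg hearts 2, 4 and 5. In WT hearts the lowest was 27.8, the median 55.7 and the highest 112, again heart 8. The same hearts led as for Adipoq, in the order 7, 4 and 8, and heart 7 was 2.74 times heart 4. The log2 fold change was 1.26 (standard error 0.80, adjusted p = 0.803 from limma) in ILKR211A Tg and 0.61 (standard error 0.80, adjusted p = 0.995) in ILKS343D Tg hearts. Without hearts 7 and 4 it was -0.05 and -0.29, so that at this probe set the sign of both differences rested on 1 heart each.

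A second Car3 probe set, below the limit for testing, gave 218, 50.5 and 37.1 in ILKR211A Tg hearts and 37.4, 107 and 35.99 in ILKS343D Tg hearts. The WT hearts had 6.21 at the lowest, a median of 35.8 and 52.5 at the highest. Hearts 7 and 4 were the highest here too, and the 2 probe sets had r = 0.755 over the 12 hearts (rho = 0.755, adjusted p = 0.0107 and 0.0128 over 2 gene pairs of probe sets, permutation test), with r = 0.306 without hearts 4 and 7. The log2 fold change of this second probe set was 1.44 in ILKR211A Tg hearts (unadjusted p = 0.0508, adjusted p = 0.752 from limma). In ILKS343D Tg hearts it was 0.94 (adjusted p = 0.998 from limma). Without hearts 7 and 4 these were 0.66 and 0.42, so that here the sign did not change. The other 2 Car3 probe sets never passed 27.0 and 19.2, both in heart 7. Without heart 7 they had 0.34 and 0.81 in ILKR211A Tg hearts, and without heart 4 they had 0.87 and -0.41 in ILKS343D Tg hearts.

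**Figure D1:**
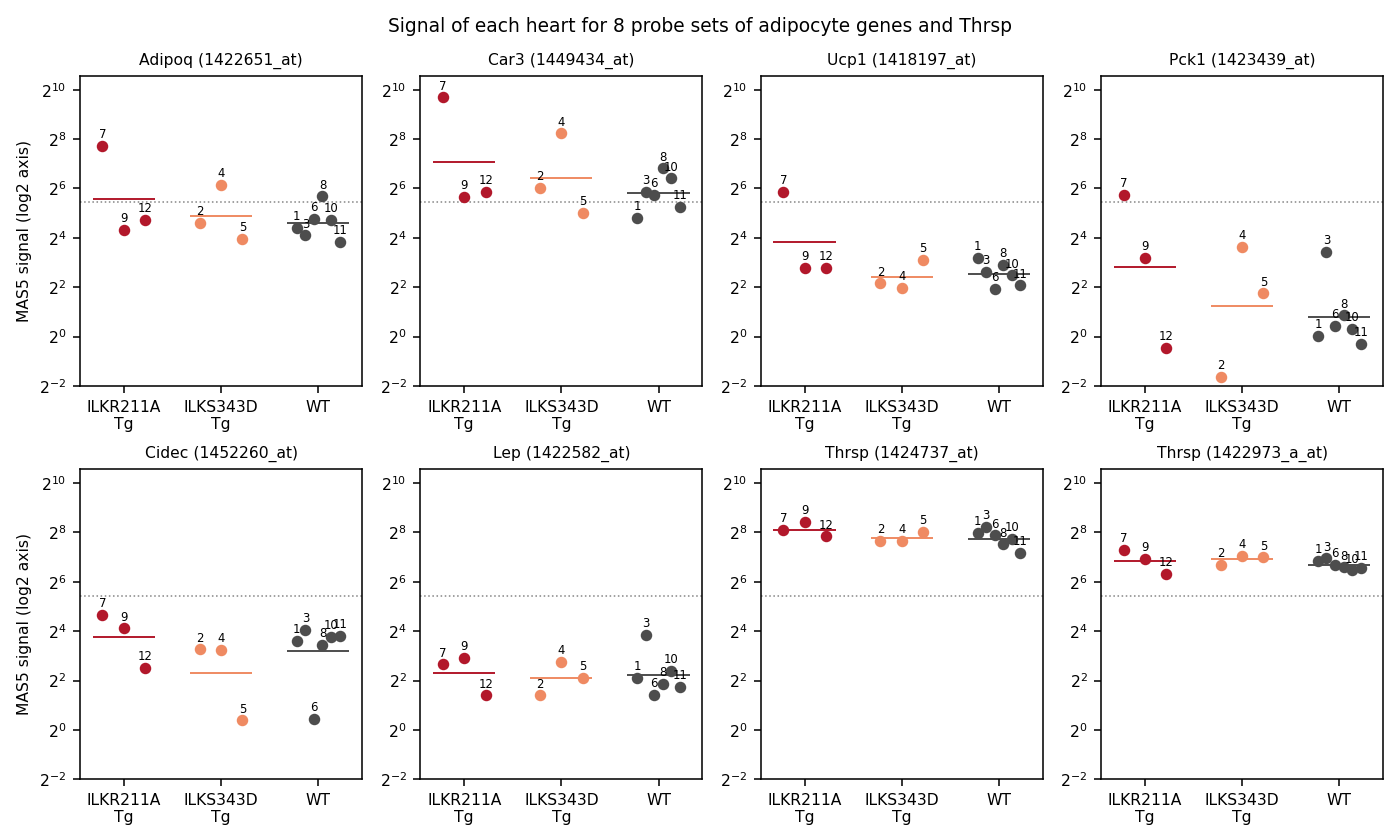
MAS5 signal of each heart (log2 axis) for 8 probe sets, with ILKR211A Tg, ILKS343D Tg and WT hearts from left to right. Points carry heart numbers, bars are means of log2 signal and the dotted line is the limit for testing, 43.5. Heart 7 leads for Adipoq (212), Car3 (823), Ucp1 (58.2) and the most variable Pck1 probe set (53.9). The other Pck1 probe sets are not shown. Lep and Cidec stay under 26 in all 12 hearts.

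Ucp1 stood out in heart 7, and 2 of the 3 Pck1 probe sets had their highest signal there. Ucp1, the uncoupling protein that defines brown fat, had 58.2, 6.85 and 6.93 in ILKR211A Tg hearts 7, 9 and 12 and 4.44, 3.89 and 8.66 in ILKS343D Tg hearts 2, 4 and 5. The WT hearts lay between 3.82 and 9.19, with a median of 5.83. Heart 7 was 6.34 times the next heart, WT heart 1, and unlike Adipoq and Car3 the gene was not high in heart 4, which had the second lowest signal. Its log2 fold change in ILKR211A Tg hearts was 1.28 (standard error 0.65, adjusted p = 0.783 from limma), or 0.25 without heart 7, and in ILKS343D Tg hearts it was -0.12 (adjusted p = 0.998). Set against the WT heart of the same title number, ILKR211A Tg hearts 7, 9 and 12 were higher by 2.96, 0.30 and 0.72 on the log2 scale, and ILKS343D Tg hearts 4 and 5 differed by -0.64 and 1.18.

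Pck1, the cytosolic PEP carboxykinase that supplies glycerol in fat cells and glucose in liver, had 53.9, 9.04 and 0.731 at its most variable probe set in ILKR211A Tg hearts 7, 9 and 12. The ILKS343D Tg hearts had 0.325, 12.5 and 3.36, and the WT hearts ran from 0.818 through a median of 1.29 to 10.8. Its log2 fold change was 2.03 in ILKR211A Tg hearts (standard error 1.29, adjusted p = 0.864 from limma), or 0.57 without heart 7, and 0.46 in ILKS343D Tg hearts (adjusted p = 0.998). All but heart 7 were below the limit of 43.5, where MAS5 values spread widely. A probe set that the platform marks as able to bind related transcripts also had its highest signal in heart 7, at 41.8 against 12.2 to 26.9 in the other 11 hearts. The remaining probe set had its lowest there, at 2.33 against 3.71 to 12.0, so the Pck1 probe sets disagreed in heart 7. For the probe set that may bind related transcripts, the brightest of Pck1, the log2 fold change was 0.29 in ILKR211A Tg hearts (standard error 0.37, adjusted p = 0.944 from limma), or -0.14 without heart 7, and -0.19 in ILKS343D Tg hearts (adjusted p = 0.998). For the remaining one it was -0.37 in ILKR211A Tg hearts (standard error 0.55, adjusted p = 0.954 from limma) and 0.18 in ILKS343D Tg hearts (adjusted p = 0.998), so the 3 gave no common direction.

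Lep and Cidec were dim in every heart. Lep, the leptin gene, had 6.32, 7.55 and 2.64 in ILKR211A Tg hearts, 2.64, 6.72 and 4.30 in ILKS343D Tg hearts and between 2.65 and 14.3 in WT hearts, with heart 3 the highest. Cidec, which fuses lipid droplets in fat cells, had 25.3, 17.3 and 5.67 in ILKR211A Tg hearts, 9.60, 9.44 and 1.31 in ILKS343D Tg hearts and between 1.36 and 16.7 in WT hearts. Heart 7 had the highest Cidec signal, at 1.46 times heart 9. In ILKR211A Tg and in ILKS343D Tg against WT hearts the log2 fold change of Cidec was 0.56 and -0.90 (standard error 0.85, adjusted p = 0.954 and 0.998 from limma), and that of Lep 0.10 and -0.14 (standard error 0.60, adjusted p = 0.993 and 0.998). All 12 values of both genes lay under the limit of 43.5, so their order is uncertain.

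Thrsp had another pattern. Its brightest probe set had 273, 342 and 229 in ILKR211A Tg hearts 7, 9 and 12, and 201, 202 and 261 in ILKS343D Tg hearts 2, 4 and 5. The first WT series had 253, 297 and 236 in hearts 1, 3 and 6, and the second had 183, 216 and 143 in hearts 8, 10 and 11. The genotypes overlapped, but the 2 WT series did not, the second lying wholly below the first. Against all 6 WT hearts the log2 fold change was 0.36 in ILKR211A Tg hearts (standard error 0.19, adjusted p = 0.719 from limma) and 0.03 in ILKS343D Tg hearts (standard error 0.19, adjusted p = 0.995). Thrsp had been picked for the study's own gene list from these arrays, so its direction in ILKR211A Tg hearts is not independent evidence.

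The Thrsp difference depended on which WT hearts it was set against. The ILKR211A Tg hearts and the second WT series hold heart numbers 7 to 12, and the ILKS343D Tg hearts and the first series hold 1 to 6. Against WT hearts of their own range, the log2 fold change was 0.64 in ILKR211A Tg hearts, with no overlap (unadjusted p = 0.00259, adjusted p = 0.365 from limma, exact permutation test p = 0.1, the smallest that 3 against 3 allow), and -0.25 in ILKS343D Tg hearts (adjusted p = 0.987 from limma). Paired with the WT heart of the same title number, the ILKR211A Tg hearts were higher by 0.58, 0.66 and 0.68 on the log2 scale, while ILKS343D Tg hearts 4 and 5 differed by -0.56 and 0.14. The WT series themselves differed by -0.55 (second minus first, standard error 0.17, adjusted p = 0.477 from limma, exact permutation test p = 0.1). Such separation of the 2 WT series was seen for 11.5% of all 45037 probe sets. Between ILKR211A Tg and ILKS343D Tg hearts, also 3 against 3, it was seen for 12.8%. The share for ILKR211A Tg against WT hearts of the same range was not computed, so the lack of overlap there has no background beside it.

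The second Thrsp probe set gave smaller differences in ILKR211A Tg hearts. It had 156, 122 and 80.4 in ILKR211A Tg hearts, 104, 132 and 127 in ILKS343D Tg hearts, and between 88.2 and 124 in WT hearts, with a median of 99.1. Its log2 fold change was 0.17 in ILKR211A Tg hearts (standard error 0.18, adjusted p = 0.906 from limma), which became -0.05 without heart 7, and 0.23 in ILKS343D Tg hearts (standard error 0.18, adjusted p = 0.995). The WT series were again apart (log2 difference -0.29, adjusted p = 0.741 from limma). The 2 probe sets had r = 0.525 and rho = 0.545 over the 12 hearts (adjusted p = 0.0774 and 0.0694, permutation test, r = 0.506 without hearts 9 and 11). Another probe set lay near the limit for testing, between 11.2 and 64.7.

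No member passed the threshold in any comparison. Of 3 tested member probe sets, those of Thrsp and Car3 named above, limma with Benjamini-Hochberg adjustment called 0 in ILKR211A Tg against WT hearts, where 0.204% of all tested probe sets were called. It called 0 in ILKS343D Tg against WT hearts (0.00444% of all), 0 between ILKR211A Tg and ILKS343D Tg hearts (0.16% of all) and 0 between the WT series (0.00888% of all). Without a filter 0 of 14 were called in each, where the share of all probe sets called was 0.104% in ILKR211A Tg against WT hearts, 0.00222% in ILKS343D Tg against WT hearts, 0.0644% between ILKR211A Tg and ILKS343D Tg hearts and 0.00444% between the WT series. At an unadjusted p under 0.05 the count was 0 of 3 in ILKR211A Tg against WT hearts (7.51% of all tested), 0 of 3 in ILKS343D Tg against WT hearts (3.98%), 0 of 3 between ILKR211A Tg and ILKS343D Tg hearts (8.45%) and 1 of 3 between the WT series (7.99%). Exact permutation tests gave p under 0.05 for 0 of 14 in ILKR211A Tg and in ILKS343D Tg against WT hearts. The share of all probe sets was not computed for this test. Between ILKR211A Tg and ILKS343D Tg hearts and between the WT series, 3 hearts against 3, it cannot give p under 0.05. The hearts of the compared groups did not overlap for 0 of 14 in ILKR211A Tg against WT hearts (3.31% of all probe sets), 0 in ILKS343D Tg against WT hearts (2.03%), 0 between ILKR211A Tg and ILKS343D Tg hearts (12.8%) and 2 between the WT series (11.5%), both of Thrsp. The smallest p of an exact permutation test is 0.1 for 3 hearts against 3, while 3 against 6 can give p under 0.05.

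The direction leaned one way in ILKR211A Tg hearts. The log2 fold change against WT hearts was above 0 for 13 of 14 member probe sets, with a median of 0.67, beside -0.01 over all 45037. Without heart 7 it was above 0 for 9 of 14, with a median of 0.21. In ILKS343D Tg hearts it was above 0 for 8 of 14 with a median of 0.10, and without heart 4 for 5 of 14 with a median of -0.30. Between ILKR211A Tg and ILKS343D Tg hearts the difference was above 0 for 11 of 14 with a median of 0.55, and without hearts 7 and 4 for 12 of 14 with a median of 0.27. Several of these probe sets share a gene, and most were too dim to be tested.

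**Figure D2:**
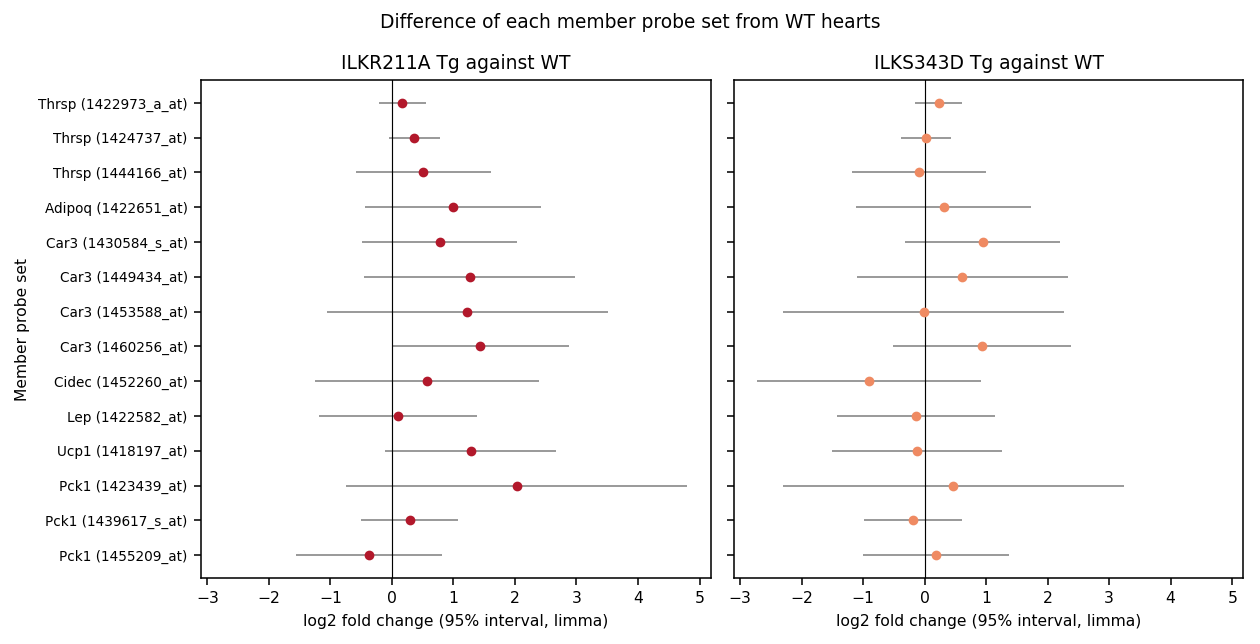
Log2 fold change of each of the 14 member probe sets with its 95% interval from limma, for ILKR211A Tg against WT hearts (left) and ILKS343D Tg against WT hearts (right). In ILKR211A Tg hearts 13 of 14 points lie above 0 and all 14 intervals reach 0 or below, and in ILKS343D Tg hearts 8 of 14 points lie above 0.

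Hearts of 1 genotype differed widely for Car3. The residual standard deviation of log2 signal within genotypes was 1.43 for its brightest probe set, larger than for 99.96% of tested probe sets, whose median was 0.179. For Adipoq it was 1.14, larger than for 79.99% of the 22518 probe sets below the limit, whose median was 0.748, and for Ucp1 and Lep it was 0.957 and 0.811, larger than for 67.0% and 54.9% of these. For the most variable Pck1 probe set, a dim one of Car3 and Cidec it was 2.18, 1.77 and 1.38, larger than for 99.8%, 98.6% and 91.9%. For the other Pck1 probe sets it was 0.493 and 0.728, larger than for 28.5% and 48.4%. For Thrsp it was 0.325 and 0.282, larger than for 87.2% and 80.5% of tested probe sets. Heart 7 had the highest signal of the 12 for 10 of 14 member probe sets, while it had the highest for 7.79% of all probe sets. Heart 4 had the highest for 1 of 14, beside 10.9% of all probe sets, and hearts 3, 9 and 12 for 1 each. The median deviation of the 14 from their 12-heart medians was 1.10 on the log2 scale in heart 7, 0.49 in heart 4 and 0.38 in WT heart 3, and between -0.44 and 0.10 in the other 9 hearts.

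Across hearts, 21 pairs of the 7 genes were compared. Adipoq and Car3 gave r = 0.957 and rho = 0.825 over 12 hearts (adjusted p = 0.00063 and 0.0361, permutation test). Within hearts 1 to 6 r was 0.907 and within hearts 7 to 12 it was 0.987, and without hearts 4 and 7 it was 0.771 (adjusted p = 0.178), so that its place past the threshold rests on those hearts. No other pair passed. Adipoq and Ucp1 had r = 0.661 (adjusted p = 0.288, rho = 0.014), which was 0.061 without hearts 4 and 7. Adipoq and Thrsp had r = 0.029 (adjusted p = 0.966, rho = -0.14), with -0.729 within hearts 1 to 6 and 0.30 within hearts 7 to 12.

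**Figure D3:**
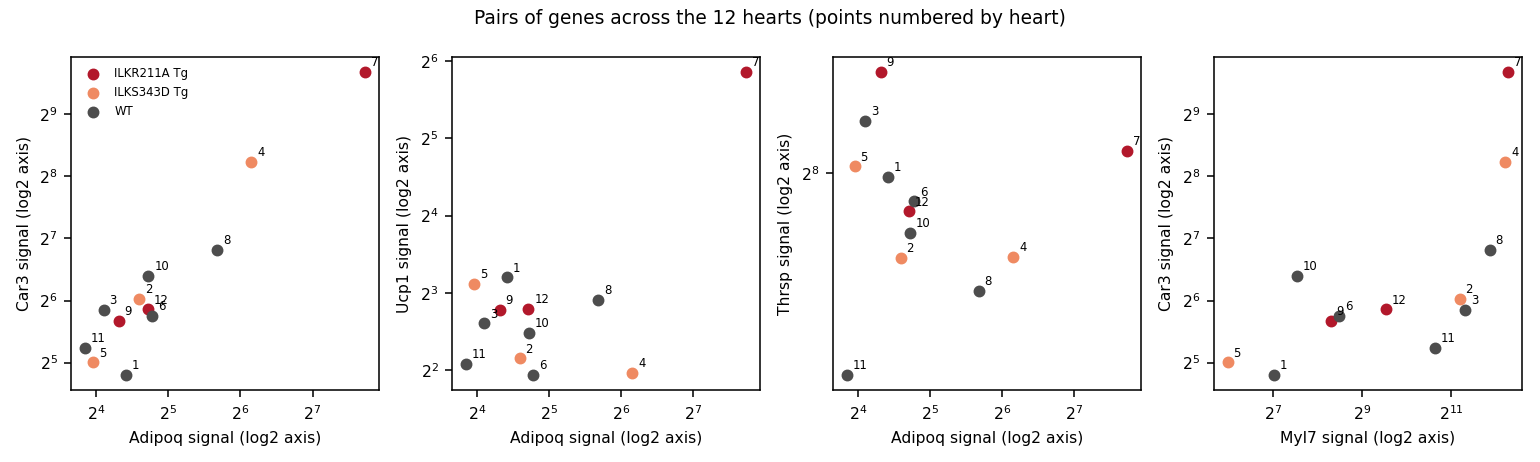
Signals of 2 genes in each of the 12 hearts (both axes log2), with points numbered by heart and coloured by genotype. Car3 is higher where Adipoq is higher (r = 0.957), Ucp1 is high in heart 7 only, Thrsp shows no trend with Adipoq (r = 0.029), and Car3 is highest in hearts 7, 4 and 8, which have the highest Myl7.

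The atrial genes were high in several of the hearts in which Adipoq and Car3 were high. The summed signal of Myl7, Myl4, Sln, Nppa and Bmp10 ran from 2638 to 20150 in ILKR211A Tg hearts, from 1848 to 21056 in ILKS343D Tg hearts and from 2587 to 15952 in WT hearts, and none of the 5 was at 0 in any heart. Heart 7 was the highest for Myl7 and Nppa and heart 4 for Myl4, Sln and Bmp10. Sarcolipin (Sln) ran from 7.79 in heart 5 to 3682 in heart 4. Against Myl7, chosen from the 5 after its values were seen, Car3 had r = 0.676 and rho = 0.776 (adjusted p = 0.086 and 0.0382 over 9 relations, permutation test), and r = 0.57 without hearts 1 and 5. Within hearts 1 to 6 this r was 0.798 and within hearts 7 to 12 it was 0.586. Adipoq had r = 0.584 and rho = 0.552 (adjusted p = 0.161 and 0.146), r = 0.532 without hearts 1 and 5, and within the ranges 0.582 and 0.654. Thrsp had r = -0.322 (adjusted p = 0.462). The second Car3 probe set had r = 0.497 and rho = 0.685 (adjusted p = 0.181 and 0.0767, permutation test). Pck1 at its brightest probe set had r = 0.557 and rho = 0.559 (adjusted p = 0.169 and 0.146, permutation test). For Cidec, Lep, Ucp1 and the second Thrsp probe set r was 0.51, 0.173, 0.142 and 0.174. Hearts 2 and 3 had Myl7 at 2326 and 2534 with Adipoq at 24.1 and 17.2, so a high atrial signal came without a high Adipoq signal there. Genotype did not separate the atrial sum (log2 difference 0.01 in ILKR211A Tg and 0.37 in ILKS343D Tg against WT hearts, exact permutation test p = 0.881 and 0.786). Its part in the members' signals was not tested.

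Other adipocyte markers followed heart 7 in part. Of 18 listed beside the members, 17 had a probe set, and 4 were highest in heart 7 (Retn, Cyp2e1, Rbp4 and Trarg1) and 4 in heart 4. Retn, the hormone resistin of mouse fat cells, had 126 in heart 7, 74.5 in heart 4 and 73.6 in heart 8, and between 33.8 and 69.7 in the other 9. Its log2 fold change in ILKR211A Tg hearts was 0.68 (standard error 0.31, unadjusted p = 0.045, adjusted p = 0.65 from limma), but 0.31 without heart 7. Other markers, among them some that the heart itself expresses, were not high there. Fabp4, a fatty acid binding protein that heart endothelium shares with fat cells, had its lowest signal in heart 7, at 6467 against 6562 to 7809 in the other 11, and Plin4 was at 1158 there within a range of 991 to 1349. Pparg, the regulator of fat cell formation, was at 18.2 in heart 7 within a range of 12.4 to 49.1. The summed signal of the 17 was 8589 to 9759 in ILKR211A Tg, 8938 to 9414 in ILKS343D Tg and 8495 to 9913 in WT hearts. Most of this sum was Fabp4, so it says little about dimmer markers such as Retn.

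Markers of brown fat beside Ucp1 differed in where heart 7 ranked. Cidea, shared by brown fat and heart in the mouse, had 488 in heart 7 within 397 to 590. Elovl3 had its lowest signal of the 12 in heart 7, at 22.4 against up to 48.0, and Zic1, Otop1 and Cpn2 stayed under 21 in all hearts. Dio2, the deiodinase that activates thyroid hormone in brown fat, was highest in heart 7, at 83.3 within 38.9 to 83.3, and Prdm16, a regulator of brown fat cell fate, was second highest there, at 214.8 after 226 in heart 9. Of the 10 listed, 1 was highest in heart 7.

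**Figure D4:**
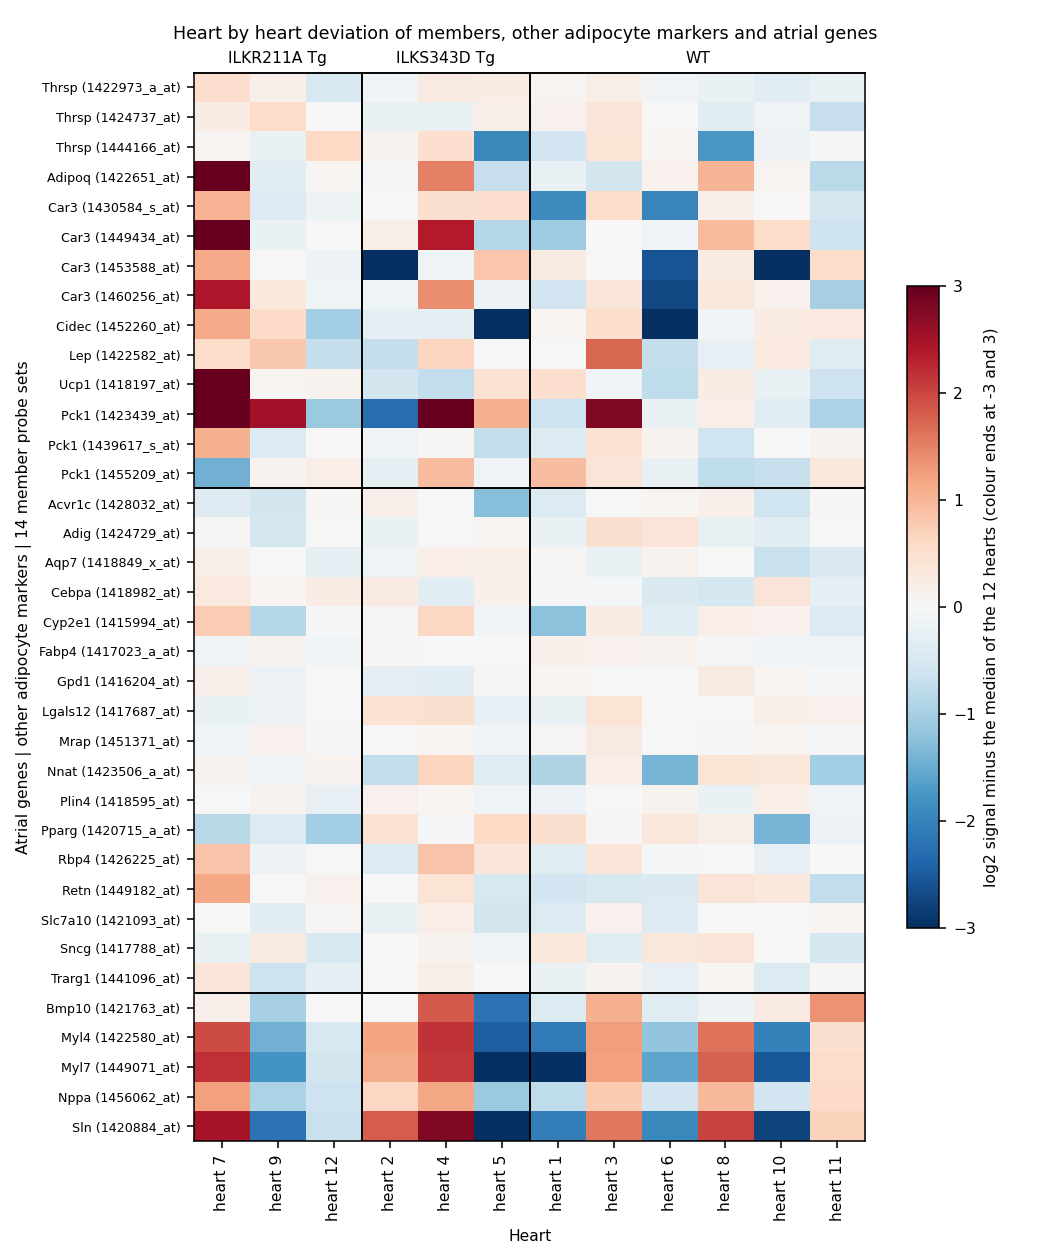
Log2 signal of each heart minus the median of the 12 hearts, for the 14 member probe sets (top), 17 other adipocyte markers (middle) and 5 atrial genes (bottom), with ILKR211A Tg, ILKS343D Tg and WT hearts from left to right. Heart 7 is above the median for 13 of 14 member probe sets, the other adipocyte markers vary less, and the atrial genes vary across hearts of every genotype.

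Genes of fatty acid and triglyceride synthesis gave 0 of 18 called in each direction in each comparison. Of all tested probe sets, 0.00444% to 0.204% were called in these comparisons. Scd1, the stearoyl-CoA desaturase, had 592 in heart 7, 294 in heart 4 and 319 in heart 8, with a median of 202. Fasn, fatty acid synthase, had 306 in heart 7 within a range of 129 to 306. Their log2 fold changes in ILKR211A Tg hearts were 0.52 and 0.37 (adjusted p = 0.806 and 0.693 from limma), but -0.050 and 0.077 without heart 7. Mid1ip1, the paralog of Thrsp, had its lowest signal in heart 7, at 1649 within a range up to 2327. The median log2 fold change of the 18 was -0.04 in ILKR211A Tg and -0.06 in ILKS343D Tg hearts, beside 0.00 over all genes.

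The remaining lists gave no call either. Of 118 tested genes in 20 lists, limma called 0 in ILKR211A Tg against WT hearts, in ILKS343D Tg against WT hearts and between the 2 lines. The shares of all tested probe sets called there were 0.204%, 0.00444% and 0.16%, so 0 of 118 says little about these lists. Among the lipid droplet and lipolysis genes, 0 of 13 passed, and Lipe, the hormone-sensitive lipase, had 364 in heart 7 within 248 to 364. Of the genes that bind or answer thyroid hormone, 0 of 9 passed. Thra, the thyroid hormone receptor of heart, was 0.23 higher on the log2 scale in ILKR211A Tg hearts (standard error 0.09, unadjusted p = 0.0197, adjusted p = 0.548 from limma), or 0.12 without heart 7. Hr, a thyroid hormone target in other tissues, had a value of -0.16, which was 0.11 against WT hearts of the same range. Among carbonic anhydrases beside Car3, 0 of 6 passed, and Car2 had the smallest p in ILKR211A Tg hearts (log2 fold change -0.47, standard error 0.11, unadjusted p = 0.000652, adjusted p = 0.155 from limma), opposite in sign to Car3. The receptors of adiponectin and leptin gave 0 of 3, with Adipor1 at 1403 to 1636 and Cdh13 at 1246 to 1657, while Lepr stayed between 18.7 and 50.9. Of the genes of gluconeogenesis and glyceroneogenesis beside Pck1, 0 of 7 passed, and Pdk4 had a log2 fold change of -0.71 in ILKR211A Tg hearts (standard error 0.32, adjusted p = 0.641), which was -0.30 against WT hearts 8, 10 and 11 of the same range, while the WT series themselves differed by -0.83 (second minus first, adjusted p = 0.529 from limma). In the alternative complement pathway, which Cfd starts, 0 of 2 passed and Cfp, properdin, had 0.69 (standard error 0.25, adjusted p = 0.5).

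Markers of mesothelium, the lining of the heart's surface, were highest in ILKS343D Tg hearts 2 and 4, which had 4 of 8 each. Lrrn4 and Upk3b had log2 fold changes of 1.31 and 1.19 in ILKS343D Tg hearts (unadjusted p = 0.00139 and 0.0044, adjusted p = 0.995 from limma) and 0.59 and 0.63 in ILKR211A Tg hearts (adjusted p = 0.75 and 0.747), the second being 0.38 without heart 7. The summed signal of the 8 was 466 to 661 in ILKR211A Tg hearts, 440 to 893 in ILKS343D Tg hearts and 296 to 607 in WT hearts. Heart 7 had 0 of the 8 at its highest, but its sum of 661 was above all WT hearts and lower only than in hearts 4 and 2. Krt19 had signals as low as 3.93, and what part mesothelium has in the members' signals was not tested.

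The genes most like Adipoq and Thrsp across the 12 hearts were ranked by Pearson's r of log2 signal among 11189 tested genes for Adipoq and 11188 for Thrsp, as a description. For Adipoq the first 8 were Car3 (r = 0.957), Traf3ip2 (0.91), Fam210b (0.895), Retn (0.893), Cep170b (0.883), Rsf1 (0.862), Scd1 (0.853) and Itga8 (0.853). Of these 8, 7 had their highest signal in heart 7. For Thrsp they were Atox1 (r = 0.961), Tcf15 (0.887), Gbe1 (0.879), Zfp771 (0.878), Slc35f6 (0.877), Zfp629 (0.875), Psmd13 (0.868) and Pfn1 (0.865). Atox1, a copper chaperone, ran from 967 to 1257, and 6 of these 8 genes were highest in ILKR211A Tg heart 9, as Thrsp was. Ranking by r favours genes that are highest in the same heart as Adipoq or Thrsp, and all of these points share 12 arrays.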

How the data were processed

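RNA of 12 mouse hearts, 3 ILKR211A Tg, 3 ILKS343D Tg and 6 WT, was measured on 1 array each. The authors deposited MAS5 signal intensity on a linear scale, scaled to a common trimmed mean, in which low signals spread widely on the log2 scale. No version of MAS5 is named in the sources used. Log2 of the deposited intensity was analysed without further scaling. Array controls (64) were left out. Probe sets were named by the platform annotation given here, which lists 1 gene for 34945, several for 932 and none for 9160. Members and gene lists were chosen with earlier results of these data known.

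Probe sets with a mean log2 signal of at least the median, 5.44 (a signal of 43.5), were tested, 22519 of 45037. Models with 1 mean per genotype and an intensity-trended variance were fitted with limma 3.58.1 in R 4.3.3 over all 12 arrays, and p-values were adjusted by Benjamini-Hochberg across those 22519, with calls at 0.05. Values for dimmer probe sets came from the same fit without the filter. A fit with 4 groups gave the difference between the WT series. Single values were compared by two-sided exact permutation tests over hearts, and relations by 100000 permutations (scipy 1.17.1), adjusted over 21 pairs of members. The limma script was tested on simulated data. Each gene of the lists was read at its brightest probe set. Genes most like Adipoq and Thrsp were the 8 with the highest Pearson's r. Alternatives were offsets, centring, filters, variance models, blocks, other WT hearts and leaving out hearts. Replicate numbers from the titles pair Tg and WT hearts within a range of heart numbers: same-numbered pairs deviated together (r of 0.119 to 0.209 over 5 pairs, against -0.161 to 0.0016 otherwise). Array pairs had r of 0.969 to 0.983 over the tested probe sets, which leave out 11 of the 14 of the members. P-values set differences or relations against the spread between these hearts.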

Additional observations from a re-analysis of the deposited data

Results flagged for a closer look

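In the WT hearts, 2 of 14 member probe sets had a heart far from the other 5. Cidec was low in WT heart 6, at a signal of 1.36. On the log2 scale its gap to the next heart was 0.831 of the group's range, above Dixon's critical value of 0.625 for 6 samples. 1 of the Pck1 probe sets was high in WT heart 3, at 10.8, with a gap of 0.692 of the range on the same scale. For normally distributed values chance flags about 1 in 20 groups, and both probe sets lay under the limit for testing.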

How the results depend on the processing

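Under all alternatives, 0 member probe sets and 0 genes of the lists were called by limma, also with the replicate block. The count of members with an exact permutation p under 0.05 was 0 to 1 when 1 heart was left out: without WT heart 6, Cidec had a log2 fold change of -1.45 in ILKS343D Tg against WT hearts (exact permutation p = 0.0357, 3 against 5 hearts). The count of member pairs with an adjusted p under 0.05, 1 over 12 hearts, was 0 without the 2 hearts farthest from the median and 0 within hearts 1 to 6, but 1 within hearts 7 to 12 (Adipoq and Car3, adjusted p = 0.0292, permutation test) and 1 after centring.

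None of the values that changed sign was called. For the brightest Car3 probe set, leaving out a heart gave -0.047 to 1.96 in ILKR211A Tg against WT hearts. In ILKS343D Tg against WT hearts it gave -0.29 to 1.32. Without hearts 4 and 7, left out together after seeing the data, as the replicate block within range was added, these were -0.047 and -0.29. Between ILKR211A Tg and ILKS343D Tg hearts this Car3 probe set had -0.66 to 1.55, and -0.038 with the range of heart numbers as a block. For the brightest Thrsp probe set, ILKS343D Tg against WT hearts gave -0.0087 after centring, -0.25 with WT hearts of the same range or the range block, -0.21 with the replicate block within range, and -0.10 to 0.12 without 1 heart. With the replicate block within range its value in ILKR211A Tg hearts was 0.64 (adjusted p = 0.205 from limma). The second Thrsp probe set had -0.053 to 0.43 in ILKR211A Tg against WT hearts, and -0.053 without hearts 4 and 7. Between ILKR211A Tg and ILKS343D Tg hearts it had -0.062 with all hearts, opposite in sign to the brightest, and -0.28 to 0.20, 0.0067 after centring, 0.23 with the range block and 0.11 with the replicate block within range. Dimmer probe sets also went against the brightest of their gene: another of Thrsp had -0.090 and 1 of Car3 -0.012 in ILKS343D Tg against WT hearts, and 1 of Car3 had -0.17 between ILKR211A Tg and ILKS343D Tg hearts. For Pck1, whose brightest had 0.29, -0.19 and 0.48 in ILKR211A Tg against WT, ILKS343D Tg against WT and ILKR211A Tg against ILKS343D Tg hearts, 1 had -0.37, 0.18 and -0.55 and the other had 0.46 in ILKS343D Tg against WT hearts. The values without heart 7 or against WT hearts of the same range for genes beside the members, and ranks among dim probe sets, were added after seeing the data. The causes were not tested.

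Over all tested probe sets, the calls between ILKR211A Tg and ILKS343D Tg hearts were 36, but 5 without a variance trend, 16 from the compared arrays only, 3 with the range block, 8 with the replicate block, 1 with the replicate block within range, 55 with array weights and 10 to 49 without 1 heart. Dim signals limit Lep, Cidec, Ucp1 and Pck1.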
